A study of Equus caballus with 45 samples.

Results

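IFI44, IFI44L, RTP4, XAF1, DDX60, DDX60L, SP110, EPSTI1 and CMPK2 are interferon-induced genes that are studied less than MX1, ISG15 or the OAS genes. These 9 genes were selected by name, with their response to MSC activation in these data already known, and 8 of them were found among the 20881 genes of both count tables. No row carried the symbol DDX60, which was not analysed here. The 45 libraries were bulk RNA-seq of equine cells. Bone marrow mesenchymal stromal cells (MSC) of the donors PC, 99 and 92 were left untreated, activated for 2 h with poly I:C, an agonist of the RNA sensor TLR3, or with 2′3′-cGAMP, an agonist of the DNA sensing adaptor STING, or carry the label CpG, for which no dose or time is given (n = 3 each, 1 library per donor). Synoviocytes, chondrocytes and monocyte-derived macrophages received the inflammatory cytokines IL-1β and TNF-α together with medium conditioned by MSC (MSC-CM), named by the state of those MSC as resting MSC-CM, STING-MSC-CM and TLR-MSC-CM, from PC, ORC and AG1 as donors (n = 3 each). The medium was given at a ratio of 1 to 3 for 24 h, and RNA was taken after a wash and 24 h more of culture. Each joint cell type also had 1 library with cytokines but no MSC-CM and 1 library without either.

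The methods give 3 young adult horses of 1 breed in total as MSC donors. Whether ORC and AG1 name other horses than the sequenced MSC donors is not given. All cells of a joint cell type had 1 horse as their source, and its 3 libraries per condition are separate libraries that the labels tell apart by the donor name PC, ORC or AG1, taken here as the donor of the medium. The labels also put such a name on the libraries without MSC-CM, where its meaning is not given. The labels give both agonists at 10 ng/mL where the methods give micrograms. They give the cytokines at 20 ng/mL on synoviocytes and chondrocytes and at 10 ng/mL on macrophages, where the methods give 20 ng/mL. The 9 MSC-CM libraries of a joint cell type all received the cytokines, resting MSC-CM included.

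Type I interferons act through a cell surface receptor whose signal switches on a large set of target genes. Some of these targets, such as the OAS and MX genes, are known antiviral effectors, while the roles of the genes described here are less well known. IFI44 and its paralogue IFI44L are cytoplasmic proteins that neighbour each other in the horse genome, in the order of genes that RefSeq lists. DDX60L is a helicase of the DExD/H-box class next to its paralogue DDX60. RTP4 is a chaperone that carries G protein-coupled receptors to the cell surface, XAF1 binds the apoptosis inhibitor XIAP, SP110 is a nuclear body protein of the SP100 family, EPSTI1 was first described from contact of epithelial and stromal cells, and CMPK2 is a mitochondrial nucleotide kinase whose gene lies next to RSAD2, the gene of the antiviral enzyme viperin. Reads that cannot be assigned between paralogues are a limit for IFI44 and IFI44L and for DDX60L.

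Total counts ran from 23525704 to 54103873 per library, and a count of 3, taken as the floor of detection, was 0.0557 to 0.129 CPM, counts scaled to a common library size, in joint cell libraries and 0.0604 to 0.1 CPM in MSC libraries. All levels are CPM after TMM scaling of each table. All 10 macrophage markers were above the floor in at least 1 macrophage library of each condition, and their summed level was 8056 to 12149 CPM in macrophages, against 10.5 to 38.5 CPM in chondrocytes and 12.96 to 19.4 CPM in synoviocytes. The 10 chondrocyte markers summed to 159 to 734 CPM in chondrocytes and 148 to 343 CPM in synoviocytes, and COL9A1 was at 0 in every chondrocyte library with resting MSC-CM. With resting MSC-CM, 7 of the 8 chondrocyte markers tested were higher on average in chondrocytes than in synoviocytes, 3 of them passing the edgeR test and 1 passing as lower, and 4 of 9 synovial fibroblast markers passed as lower. In bulk RNA, fewer cells of a type and less RNA per cell cannot be told apart.

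In untreated MSC the 8 genes were low, and with the STING agonist every one of them was higher in all 3 donors. IFI44 was 1.88, 3.22 and 3.43 CPM in untreated MSC of the donors PC, 99 and 92, and 254, 327 and 204 CPM with the STING agonist. IFI44L was 0.907, 4.55 and 4.88 CPM in the same order untreated and 178, 241 and 118 CPM with the STING agonist. Both paralogues were thus lowest in donor PC before activation and highest in donor 99 after it. DDX60L was 1.13, 3.42 and 1.14 CPM untreated and 393, 288 and 300 CPM with the STING agonist. RTP4 was 0.130, 0.198 and 0.415 CPM untreated, from 4, 7 and 20 counts, and 66.1, 70.8 and 35.2 CPM with the STING agonist. XAF1 had 16, 18 and 0 counts untreated and reached 105, 129 and 54.0 CPM with the STING agonist. The donor with no XAF1 count before activation therefore also gained this transcript.

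CMPK2, SP110 and EPSTI1 started higher and differed less. CMPK2 was 6.61, 5.85 and 5.46 CPM untreated in the donors PC, 99 and 92 and 125, 127 and 92.0 CPM with the STING agonist. SP110 was 10.7, 8.70 and 11.9 CPM untreated and 43.9, 53.1 and 46.9 CPM with the STING agonist, ratios of 4.09, 6.11 and 3.93. EPSTI1 was 6.13, 12.4 and 35.1 CPM untreated and 70.1, 102 and 124 CPM with the STING agonist. Untreated EPSTI1 was thus highest in donor 92, whose ratio of 3.55 was the lowest of the 3 donors, against 8.21 in donor 99 and 11.4 in donor PC.

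With the TLR3 agonist the donors parted. In donor 92 none of the 8 genes was above its untreated level, and IFI44 was 2.08 CPM, DDX60L 0.416 CPM and RTP4 0.0554 CPM, from 2 counts. In the donors PC and 99 IFI44 was 301 and 214 CPM with the TLR3 agonist, DDX60L 445 and 215 CPM, and RTP4 97.02 and 43.5 CPM. XAF1 was 112 and 84.0 CPM in these donors and had 0 counts in donor 92. SP110 showed the same split at a smaller scale, with 55.9 and 34.4 CPM in the donors PC and 99 and 11.8 CPM in donor 92. EPSTI1 was 84.2, 64.8 and 32.2 CPM in the donors PC, 99 and 92, and CMPK2 was 151, 95.1 and 4.66 CPM. The untreated and TLR3 groups therefore overlapped for all 8 genes, through the library of donor 92 alone.

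**Figure D1:**
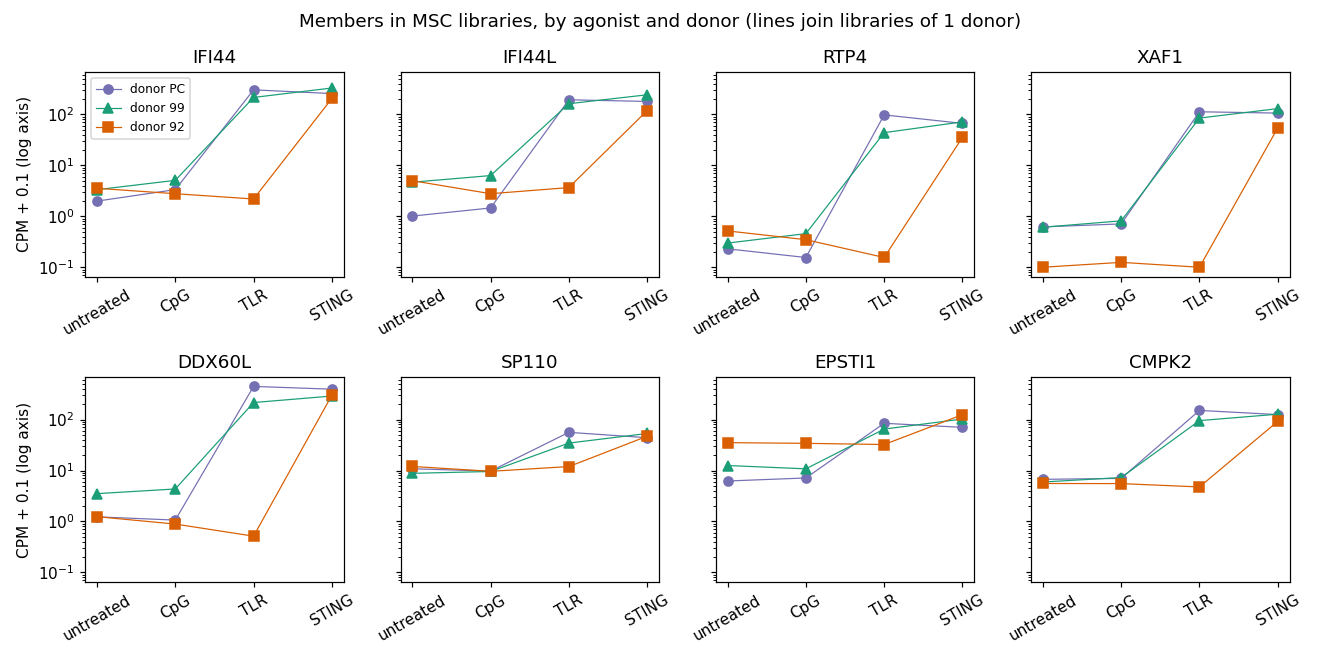
Each panel plots 1 gene in the 12 MSC libraries, with condition on the x axis and CPM + 0.1 on a log y axis, and lines joining the libraries of 1 donor. The STING libraries of all 3 donors lie above every untreated library, while the TLR library of donor 92 (orange squares) stays at the untreated level in each panel.

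These MSC values are what the genes were selected on, so the agonist contrasts are a description only, and calls on them support nothing. Over the 8 genes the median log2 fold change was 5.54 with the TLR3 agonist and 6.14 with the STING agonist, beside medians of 0.02 and 0.01 over all 14872 genes tested. All 8 genes were above every untreated library with the STING agonist, as were 3.13% of genes, and 0 of 8 were with the TLR3 agonist, as were 0.767% of genes. Of the 10 macrophage markers, CD68 alone made up this list's higher sum with the agonists, with 188, 324 and 50.8 CPM in the STING libraries of the donors PC, 99 and 92, while CD163 and AIF1 were at 0 and CD14 did not exceed 0.63 CPM in them. The part of such cells in these values was not tested.

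The difference between both agonists was read from the same libraries that the selection drew on, so its test is not independent of the selection. Each of the 8 was higher on average with the STING agonist (median log2 fold change 0.57), but none passed the test (0% of 14872 genes, edgeR quasi-likelihood test, smallest adjusted p-value of the 8 genes 1, 0 of 8 at an unadjusted p-value under 0.05, DESeq2 0 of 8). The sign depended on the donor. In donor 92 IFI44 was 98.1 times as high with the STING agonist as with the TLR3 agonist, in donor 99 it was 1.53 times as high, and in donor PC the ratio was 0.845. Leaving out the TLR library of donor 92 brought the median over the 8 genes to 0.01. The donor as a blocking term gave a median of 0.96 and also no call.

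The libraries labelled CpG did not separate from the untreated ones. IFI44 was 3.23, 4.95 and 2.67 CPM in the CpG libraries of the donors PC, 99 and 92, and EPSTI1 was 7.04, 10.7 and 34.0 CPM, keeping the order of the donors seen in untreated MSC. Over the 8 genes 4 were higher and 4 lower, the median log2 fold change was 0.02, and 0 passed the edgeR test (0% of 15099 genes, 0 of 8 at an unadjusted p-value under 0.05, DESeq2 0 of 8). The standard errors of the log2 fold changes ran from 0.41 for SP110 to 1.87 for XAF1. Differences of that size are left undecided by this test, which did not use the pairing by donor.

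The other genes of the pathway gave the setting of these values in MSC. Of 32 further interferon effectors tested, all 32 were higher on average with either agonist, with median log2 fold changes of 4.44 for the TLR3 agonist and 4.80 for the STING agonist. With the TLR3 agonist 4 of the 32 were above every untreated library, as were 0.767% of all genes. With the STING agonist all 32 were, as were 3.13% of all genes. The most abundant of them, IFI6, a small antiviral membrane protein, was 141 ± 46.9 CPM untreated and 4632 ± 2345 CPM with the STING agonist (SD, n = 3). Of 21 genes of interferon sensing and signalling, 15 were higher with each agonist, with medians of 0.16 and 0.30. The kinase JAK1 was 130 ± 23.7 CPM untreated and 111 ± 32.3 CPM with the STING agonist. Of 11 relatives and partners of the 8 genes, 7 were higher on average with the STING agonist and 3 were above every untreated library, with a median log2 fold change of 0.01. DDX58, the gene of the RNA sensor RIG-I, was 15.4 ± 4.08 CPM untreated and 188 ± 84.7 CPM with the STING agonist. CMPK1, the cytosolic counterpart of CMPK2, was 125 ± 20.4 CPM untreated and 123 ± 24.1 CPM with the STING agonist, and XIAP was 16.5 ± 5.05 and 16.3 ± 8.73 CPM. SP100, the namesake of the family of SP110, was 8.93 ± 4.41 CPM untreated and 24.1 ± 10.3 CPM with the STING agonist.

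In the joint cells given resting MSC-CM, all 8 genes were far higher in macrophages than in synoviocytes or chondrocytes. IFI44 was 98.2, 160 and 80.3 CPM in macrophages with medium of the donors PC, ORC and AG1, 3.24, 4.29 and 3.26 CPM in synoviocytes and 0.846, 3.26 and 1.56 CPM in chondrocytes. IFI44L was 71.6, 117 and 62.7 CPM in macrophages, 1.90, 1.37 and 1.76 CPM in synoviocytes and 0.0651, 0.563 and 0.159 CPM in chondrocytes. DDX60L was 120, 169 and 55.8 CPM in macrophages, 3.17, 3.75 and 3.97 CPM in synoviocytes and 0.0976, 0.161 and 0.344 CPM in chondrocytes. For these 3 genes, as for the other 5, every macrophage library was above every library of the other cell types, which held for 39.5% of all genes against synoviocytes and 38.5% against chondrocytes. RTP4 was 9.21, 18.8 and 4.70 CPM in macrophages, 0.458, 0.144 and 0.326 CPM in synoviocytes and 0.228, 0.282 and 0.450 CPM in chondrocytes, so that the last 2 cell types overlapped. XAF1 was 45.0, 96.1 and 51.1 CPM in macrophages, had 1, 3 and 3 counts in synoviocytes and had 0 counts in all 3 chondrocyte libraries.

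SP110 was 43.4, 58.8 and 34.1 CPM in macrophages, 9.80, 10.7 and 9.41 CPM in synoviocytes and 9.69, 9.30 and 8.54 CPM in chondrocytes. EPSTI1 was 122, 185 and 66.8 CPM in macrophages, 3.49, 2.74 and 3.48 CPM in synoviocytes and 2.57, 1.21 and 2.04 CPM in chondrocytes. CMPK2 was 71.9, 108.2 and 35.2 CPM in macrophages, 6.17, 5.66 and 5.86 CPM in synoviocytes and 6.57, 7.73 and 8.54 CPM in chondrocytes. CMPK2 was therefore the 1 gene of the 8 with every chondrocyte library above every synoviocyte library, as 17.4% of all genes were.

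All 8 genes passed the test between macrophages and synoviocytes and between macrophages and chondrocytes, where 71.6% and 71.5% of the 15599 genes tested passed as well. Against synoviocytes the log2 fold changes were 4.96 ± 0.40 (SE) for IFI44, 5.62 ± 0.36 for IFI44L, 5.09 ± 0.58 for RTP4, 4.97 ± 0.39 for DDX60L, 2.17 ± 0.18 for SP110, 5.25 ± 0.38 for EPSTI1 and 3.59 ± 0.34 for CMPK2, with edgeR adjusted p-values from 1.5e-07 to 1.6e-05 over the 8 genes. XAF1 had 7 counts in total in synoviocytes, with no library above the floor. The ratio of the summed XAF1 counts, scaled by library size, was 734 between macrophages and synoviocytes (95% counting interval 356 to 1826). Against chondrocytes they were 5.92 ± 0.42 for IFI44, 8.41 ± 0.45 for IFI44L, 5.01 ± 0.57 for RTP4, 9.03 ± 0.53 for DDX60L, 2.29 ± 0.18 for SP110, 5.96 ± 0.40 for EPSTI1 and 3.21 ± 0.34 for CMPK2, with adjusted p-values from 3.9e-08 to 1.6e-05. XAF1 was at least 646-fold higher in macrophages than in chondrocytes, set against the mean floor of 3 counts per library. The median log2 fold changes of the 8 genes were 5.03 and 5.94, beside 0.04 over all genes in both comparisons. As each cell type came from 1 horse, cell type and horse cannot be told apart in these values. Nor can cell type be told apart from the lower cytokine dose that the labels give for macrophages. Of 8 lymphocyte and dendritic cell markers tested, 7 passed as higher and 1 as lower in macrophages, against either cell type. IFNG, the gene of interferon gamma, had 200, 97 and 337 counts in macrophages with resting medium of PC, ORC and AG1. It had 0 counts in the synoviocyte and chondrocyte libraries with resting MSC-CM. The part of other blood cells in these values was not tested.

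Between synoviocytes and chondrocytes the order of the genes was less uniform. IFI44L (log2 fold change -2.79 ± 0.53, adjusted p = 0.0046) and DDX60L (-4.07 ± 0.58, adjusted p = 0.00084) were lower in chondrocytes than in synoviocytes by edgeR, 2 of 8 genes where 18.1% of all genes passed. With a block for the MSC donor 4 of 8 and 19.4% of all genes passed, IFI44 and XAF1 in addition, and DESeq2 called 3 of 8 and 22.5% of all genes, XAF1 in addition. Every chondrocyte library was below every synoviocyte library for 4 of 8 genes, as for 20.1% of all genes. No fold is given for XAF1 here, since both groups were at or under the floor. SP110, RTP4, EPSTI1 and CMPK2 did not pass in any of these fits.

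The other interferon effectors were also higher in macrophages, with 32 of 32 passing against synoviocytes (median log2 fold change 4.31) and 30 of 32 against chondrocytes (median 6.11). In chondrocytes 7 of the 32 were higher on average than in synoviocytes. By the edgeR test 13 passed as lower in chondrocytes and 1 as higher, where 18.1% of all genes passed. IFI6 was 814 ± 389 CPM in macrophages, 41.3 ± 13.5 CPM in synoviocytes and 29.9 ± 2.99 CPM in chondrocytes. SP100 followed SP110's order more steeply, at 79.2 ± 13.8, 9.39 ± 0.859 and 1.72 ± 0.304 CPM, while CMPK1 was 92.1 ± 5.92, 78.5 ± 3.52 and 85.1 ± 6.18 CPM. Untreated MSC, which were scaled in another table and not tested against the joint cells, held 2.84 ± 0.840 CPM of IFI44, 10.4 ± 1.63 CPM of SP110 and 17.9 ± 15.2 CPM of EPSTI1.

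**Figure D2:**
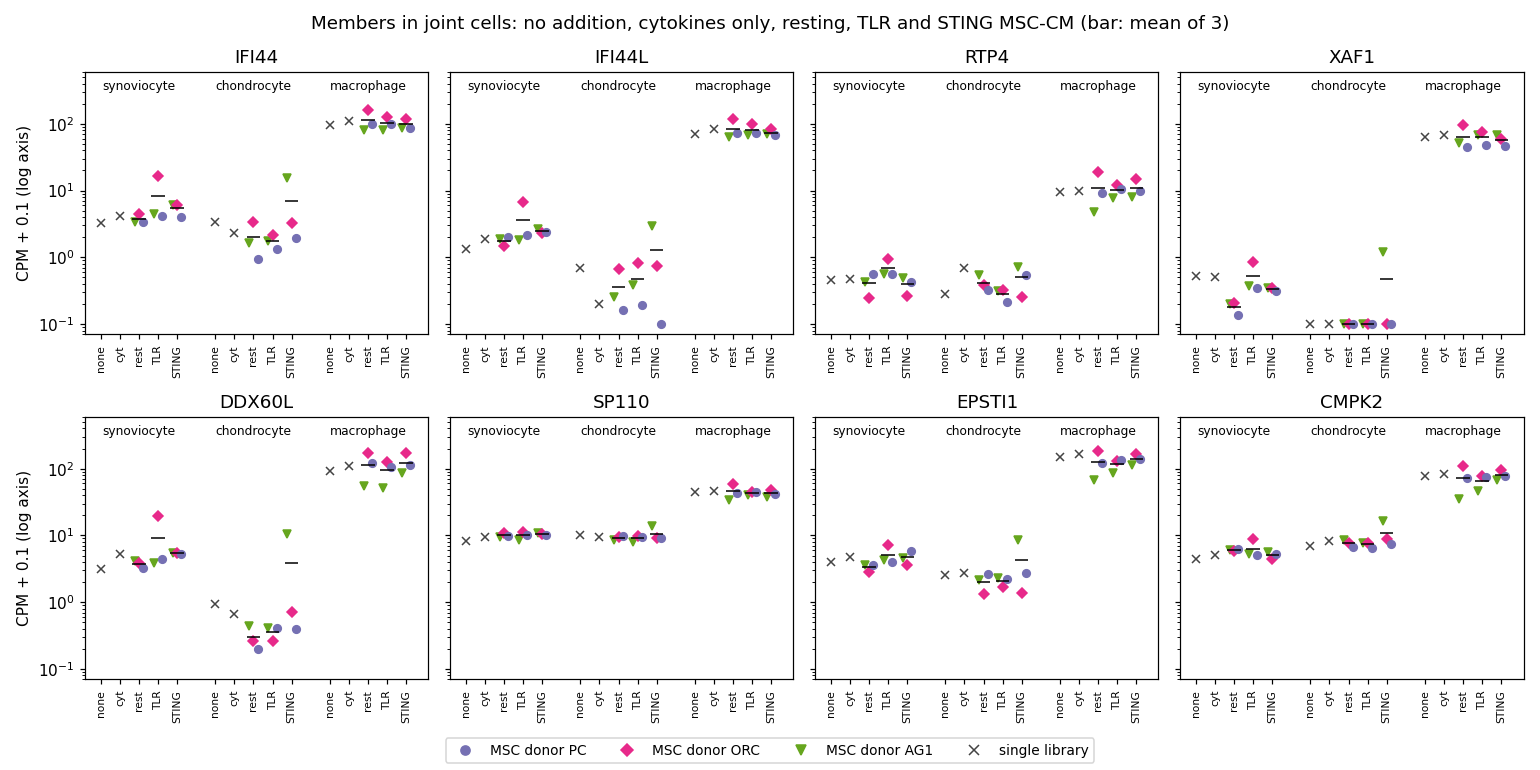
Each panel plots 1 gene in the 33 joint cell libraries, with cell type and condition on the x axis (none, no addition; cyt, cytokines only; rest, TLR and STING, the MSC-CM given) and CPM + 0.1 on a log y axis, and bars for the mean of 3. All macrophage libraries lie above those of the other cell types, and the pink TLR point of synoviocytes and the green STING point of chondrocytes stand above their groups.

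TLR-MSC-CM was compared with resting MSC-CM to ask whether activation of the MSC changed the joint cells that received the medium. In synoviocytes 7 of the 8 genes were higher on average with TLR-MSC-CM, and most of the difference lay in the library with medium of donor ORC. IFI44 was 4.01, 16.6 and 4.38 CPM with TLR-MSC-CM of the donors PC, ORC and AG1, against 3.24 to 4.29 CPM with resting MSC-CM. DDX60L was 4.30, 19.3 and 3.80 CPM against 3.17 to 3.97 CPM, and IFI44L was 2.07, 6.71 and 1.71 CPM against 1.37 to 1.90 CPM. The ORC library alone was well above the resting libraries for these 3 genes. XAF1 had 11, 20 and 7 counts with TLR-MSC-CM and 1, 3 and 3 counts with resting MSC-CM, a ratio of 4.87 with a 95% counting interval of 2.15 to 12.9. EPSTI1 was 3.93, 7.05 and 4.15 CPM against 2.74 to 3.49 CPM. XAF1, EPSTI1 and RTP4 were above every resting library with all 3 media, 3 of 8 genes where 6.68% of all genes were. The 1 library with cytokines but no MSC-CM held 0.409 CPM of XAF1, within the TLR-MSC-CM range of 0.245 to 0.763 CPM. It held 4.65 CPM of EPSTI1, also within the TLR-MSC-CM range. RTP4 was 0.372 CPM in that library, below its TLR-MSC-CM range of 0.466 to 0.839 CPM.

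None of the 8 genes passed the edgeR test for TLR-MSC-CM in synoviocytes (0% of 14584 genes passed). At an unadjusted p-value under 0.05 there were 5 of 8, and 10.0% of all genes, with log2 fold changes of 1.17 ± 0.43 (SE) for IFI44, 1.02 ± 0.41 for IFI44L, 1.29 ± 0.46 for DDX60L and 0.61 ± 0.24 for EPSTI1 and, as the fifth, XAF1, all at an adjusted p of 0.49, and DESeq2 called 0 of 8. The median log2 fold change was 0.95 over the 8 genes and 0.00065 over all genes. When the ORC library was left out the median fell to 0.19, with IFI44 at 0.21 and DDX60L at 0.16. That library held the highest of the 9 values for 8 of 8 genes and for 27 of 31 other interferon effectors, beside 21.7% of all genes. CXCL10, a chemokine induced by interferon, had 320 counts in it and at most 29 counts in the other synoviocyte libraries. The macrophage markers summed to 12.96 CPM in it, the lowest of the 9 libraries.

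With STING-MSC-CM the synoviocytes showed smaller and more even differences. DDX60L was 5.16, 5.37 and 5.33 CPM with medium of the donors PC, ORC and AG1, above all resting libraries, and IFI44L was 2.29, 2.21 and 2.54 CPM. EPSTI1 was 5.74, 3.57 and 4.53 CPM, and XAF1 had 6, 6 and 11 counts. These 4 of 8 genes did not overlap with the resting libraries from above, as 7.36% of all genes did not. The 1 library with cytokines but no MSC-CM held 5.21 CPM of DDX60L and 4.65 CPM of EPSTI1, within the STING-MSC-CM range. It held 0.409 CPM of XAF1, above the STING-MSC-CM range of 0.218 to 0.252 CPM, and 1.78 CPM of IFI44L, below the range of that gene. CMPK2 was 5.12, 4.30 and 5.54 CPM, below the 5.66 to 6.17 CPM of the resting libraries, 1 of 8 genes below where 6.82% of all genes were. The log2 fold changes were 0.53 ± 0.47 (SE) for DDX60L, 0.48 ± 0.42 for IFI44L, 0.51 ± 0.24 for EPSTI1 and -0.24 ± 0.19 for CMPK2. By edgeR 0 of 8 passed (0% of all genes, lowest adjusted p of the 8 genes 0.63, 0 of 8 at an unadjusted p-value under 0.05), and DESeq2 called 0 of 8. The median was 0.49. STING-MSC-CM against TLR-MSC-CM gave a median of -0.57, again with 0 of 8 called (0% of all genes, 0 of 8 at an unadjusted p-value under 0.05, DESeq2 0 of 8), and 0.17 without the ORC library.

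In chondrocytes the pattern was turned round, with the difference in the STING-MSC-CM of donor AG1. IFI44 was 1.83, 3.21 and 15.4 CPM with STING-MSC-CM of the donors PC, ORC and AG1, against 0.846 to 3.26 CPM with resting MSC-CM. DDX60L had 8, 16 and 459 counts, or 0.300, 0.605 and 10.4 CPM, against 0.0976 to 0.344 CPM. XAF1 had 49 counts in the AG1 library and 0 counts in each of the other 8 MSC-CM libraries of chondrocytes. The group mean of XAF1 was at least 3.72-fold higher than with resting MSC-CM, set against the floor, and rested on this 1 library. IFI44L had 0, 17 and 128 counts with STING-MSC-CM and 2, 14 and 6 counts with resting MSC-CM. EPSTI1 was 2.62, 1.29 and 8.51 CPM against 1.21 to 2.57 CPM, and CMPK2 was 7.41, 8.62 and 16.2 CPM against 6.57 to 8.54 CPM. SP110 was 8.988, 8.996 and 13.5 CPM against 8.54 to 9.69 CPM. RTP4 was 0.449, 0.151 and 0.610 CPM against 0.228 to 0.450 CPM.

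All 8 genes were higher on average with STING-MSC-CM in chondrocytes, with a median log2 fold change of 1.49 beside 0.0025 over all genes, and 0 of 8 passed the edgeR test (0% of 14304 genes). At an unadjusted p-value under 0.05 there were 2 of 8, and 0.909% of all genes, with log2 fold changes of 1.88 ± 0.77 (SE) for IFI44 and 4.18 ± 1.27 for DDX60L, both at an adjusted p of 1. EPSTI1 was at 1.10 ± 0.60 and CMPK2 at 0.50 ± 0.27. DESeq2 called 0 of 8. With a block for the MSC donor 6 of 8 had an unadjusted p-value under 0.05, as had 3.92% of all genes in that fit, and 0 an adjusted one. In no gene were all 3 STING-MSC-CM libraries above the resting ones, as 2.05% of all genes were. Without the AG1 library the median was 0.07, and DDX60L was at 1.122, IFI44 at 0.42, EPSTI1 at 0.004 and CMPK2 at 0.07.

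The AG1 library with STING-MSC-CM held the highest of the 9 values for 8 of 8 genes and for 30 of 31 other interferon effectors, beside 11.3% of all genes. MX1 was 37.0 CPM in it and 1.01 to 3.18 CPM in the other 8, and RSAD2, the neighbour of CMPK2, was 50.3 CPM against 33.3 to 43.6 CPM. The macrophage markers summed to 38.5 CPM there and to at most 19.5 CPM in the other 8, which was CD68 at 36.3 CPM, while CD163, MRC1 and PTPRC were at 0 in it, and the part of these cells in the result was not tested. The same medium donor gave no such library in synoviocytes, where IFI44 was 6.04 CPM with STING-MSC-CM of AG1 and 6.03 CPM with that of ORC. No MSC library carries the name ORC or AG1. Whether these names stand for horses whose MSC were sequenced under another name is not given. The media that stood apart can therefore not be set beside the MSC that made them. PC is the name found in both sets. MSC of PC with 301 CPM of IFI44 after the TLR3 agonist gave a TLR-MSC-CM. With it synoviocytes held 4.01 CPM and chondrocytes 1.22 CPM.

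With TLR-MSC-CM chondrocytes held 1.22, 2.06 and 1.64 CPM of IFI44 and 0.315, 0.159 and 0.315 CPM of DDX60L with medium of the donors PC, ORC and AG1, within the resting range. RTP4 was 0.111, 0.222 and 0.210 CPM, from 6, 7 and 6 counts, below the 0.228 to 0.450 CPM of the resting libraries, 1 of 8 genes below where 1.61% of all genes were. XAF1 was at 0 in both groups. The median log2 fold change over the other 7 genes was -0.04, and 0 of 8 passed the edgeR test (0% of all genes, 0 of 8 at an unadjusted p-value under 0.05, DESeq2 0 of 8). STING-MSC-CM against TLR-MSC-CM gave a median of 1.47 with 0 of 8 called (0% of all genes, 2 of 8 and 0.811% of all genes at an unadjusted p-value under 0.05, DESeq2 0 of 8), and 0.15 without the AG1 library.

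**Figure D3:**
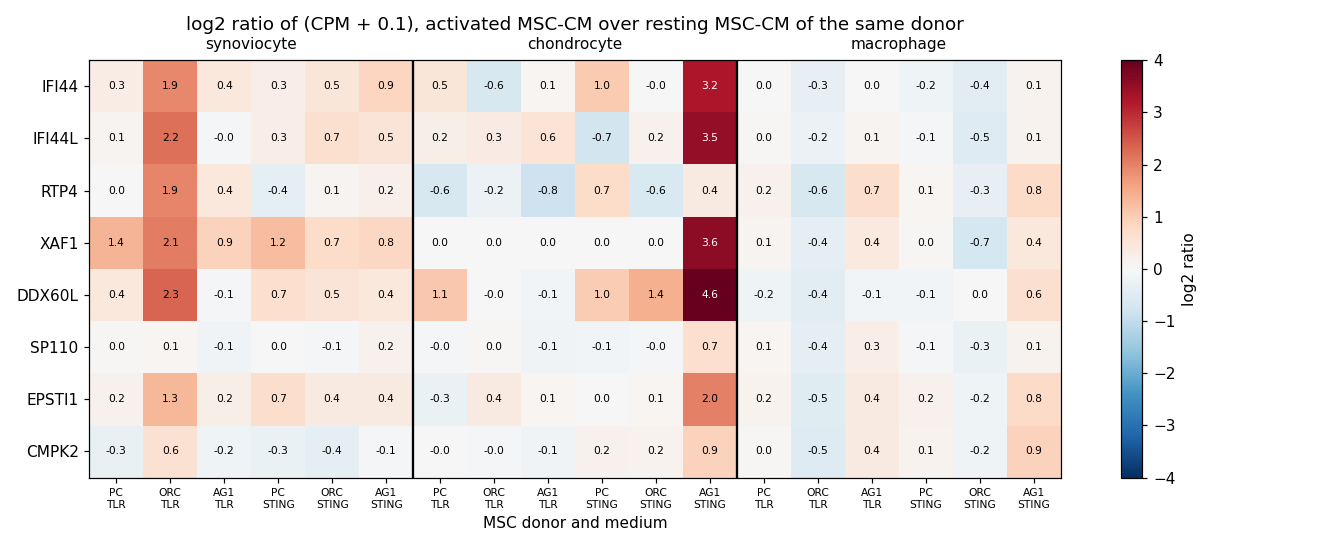
The heat map gives, for each gene (rows) and each joint cell library with TLR- or STING-MSC-CM (columns), the log2 ratio of CPM + 0.1 over the library with resting MSC-CM of the same donor, red for higher and blue for lower. The ORC TLR column of synoviocytes and the AG1 STING column of chondrocytes hold the darkest reds, up to 4.56 for DDX60L in the latter, and SP110 is pale throughout.

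In macrophages the 8 genes stayed high with every medium and no medium moved them beyond the spread of the libraries. IFI44 was 113 ± 41.9 CPM with resting MSC-CM, 103 ± 22.8 CPM with TLR-MSC-CM and 98.2 ± 18.5 CPM with STING-MSC-CM (SD, n = 3). DDX60L was 115 ± 56.9, 95.3 ± 39.2 and 123 ± 42.5 CPM, and XAF1 was 64.1 ± 27.9, 63.5 ± 13.7 and 58.0 ± 11.3 CPM. EPSTI1 was 125 ± 59.3, 118 ± 28.0 and 139 ± 26.3 CPM, and CMPK2 was 71.7 ± 36.5, 65.4 ± 17.2 and 80.2 ± 14.3 CPM. The edgeR test passed 0 of 8 genes and 0% of 15052 genes for TLR-MSC-CM against resting MSC-CM, and 0 of 8 and 0% for STING-MSC-CM against resting and against TLR-MSC-CM. There was no member at an unadjusted p-value under 0.05 in the 3 comparisons, and DESeq2 called 0 of 8 in each. The medians were -0.09, -0.04 and 0.04.

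The spread among macrophage libraries was widest with resting MSC-CM. The resting library of donor ORC held the highest of the 9 values for 7 of 8 genes, and for 19 of 32 other effectors, beside 12.4% of all genes. The exception was DDX60L, at 170 CPM with STING-MSC-CM of ORC and 169 CPM with its resting medium. The resting library of AG1 held the lowest IFI44 of the 9, at 80.3 CPM, and the lowest CMPK2, at 35.2 CPM. The same ORC library had the fewest counts of the 45, 23525704. Leaving out resting ORC moved the median for TLR-MSC-CM to 0.26 and leaving out resting AG1 moved it to -0.36, and the same omissions moved the median for STING-MSC-CM to 0.38 and -0.26, so that both signs depended on 1 library.

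**Figure D4:**
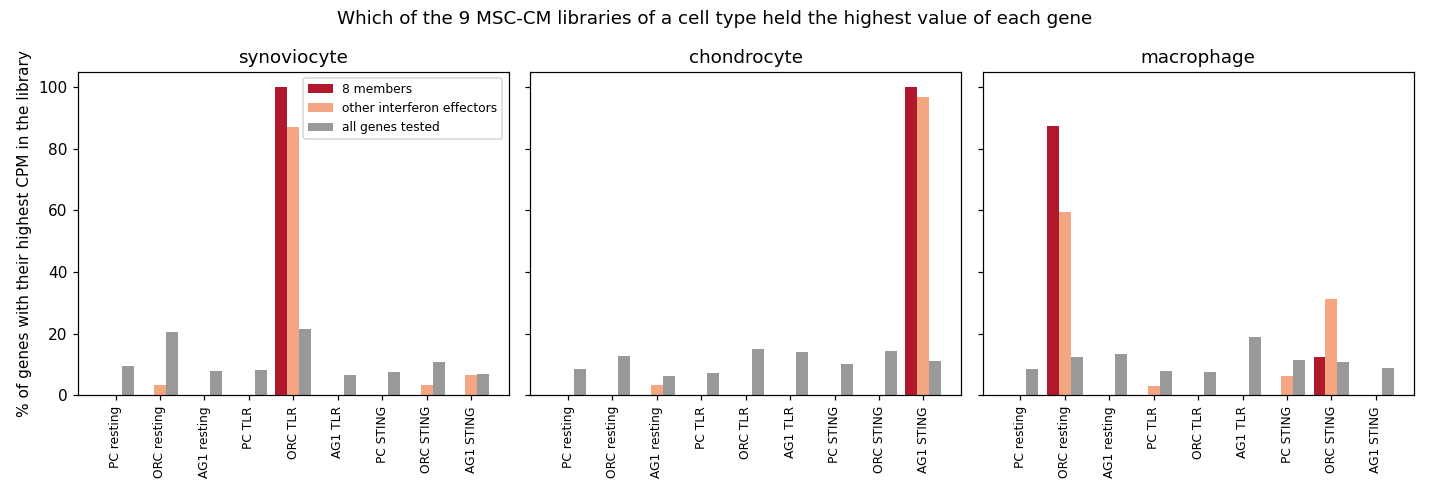
Bars give, for each of the 9 MSC-CM libraries of a cell type (x axis), the percent of genes whose highest CPM was in that library, for the 8 genes, the other interferon effectors and all genes tested. The 8 genes reach 100% in the ORC TLR library of synoviocytes and in the AG1 STING library of chondrocytes, and 7 of 8 in the ORC resting library of macrophages.

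Whether the change with a medium differed between the 3 cell types was tested over the 27 MSC-CM libraries. For TLR-MSC-CM 0 of 8 genes had a cell type by medium term that passed (0% of 16584 genes, edgeR quasi-likelihood test, 0 of 8 at an unadjusted p-value under 0.05, DESeq2 0 of 8). For STING-MSC-CM also 0 of 8 passed (0% of all genes), and IFI44, XAF1 and DDX60L had an unadjusted p-value under 0.05, as had 2.83% of all genes, each of the 3 with an adjusted p of 1. DESeq2 called 0 of 8, and the fit with the donor of the medium as a block called 0 of 8, with XAF1 at an adjusted p of 0.088. The differences in size between cell types described above are therefore not shown to be more than the spread between media.

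Libraries of cells that received no MSC-CM gave the level of the genes without it, 1 library per condition and so with no replicate check. In synoviocytes IFI44 was 3.14 CPM with no addition and 4.09 CPM with the cytokines only. DDX60L was 3.01 CPM with no addition and 5.21 CPM with the cytokines only. EPSTI1 was 3.91 and 4.65 CPM, both above the 2.74 to 3.49 CPM of the libraries with resting MSC-CM. None of the 8 genes was 2-fold higher or lower with the cytokines, where 3.89% of genes were at least 2-fold higher and 3.23% at least 2-fold lower. XAF1 had 13 counts with no addition and 11 with the cytokines only, against 1 to 3 counts with resting MSC-CM in this cell type.

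In chondrocytes IFI44 was 3.32 CPM with no addition and 2.23 CPM with the cytokines. RTP4 had 5 and 24 counts and was the 1 of 7 genes with enough counts to be at least 2-fold higher, as 6.58% of genes were. IFI44L had 16 and 4 counts and was the 1 at least 2-fold lower, as 6.49% of genes were. XAF1 was at 0 in both libraries. In macrophages the 8 genes were as high without cytokines as with them, IFI44 at 96.2 and 111 CPM and EPSTI1 at 149 and 165 CPM, with 0 of 8 at least 2-fold higher (1.53% of genes) and 0 of 8 at least 2-fold lower (0.986%).

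CMPK2 and its neighbour RSAD2 parted in these libraries of synoviocytes and chondrocytes. In macrophages they were 1.07 and 1.13 times as high with the cytokines as with no addition. RSAD2 was 4.23 CPM with no addition and 13.7 CPM with the cytokines in synoviocytes, and 12.4 and 39.6 CPM in chondrocytes, 3.24 and 3.20 times as high. CMPK2 was 4.33 and 5.02 CPM in synoviocytes and 6.75 and 8.05 CPM in chondrocytes, 1.16 and 1.19 times as high. In MSC both were higher with the STING agonist, where RSAD2 was 36.7 ± 18.2 CPM against 0.883 ± 0.257 CPM untreated.

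Outside the 8, the genes whose levels followed each of them most closely were mostly other interferon targets. They are given as Pearson's r over libraries that share donors, with no test. Over the 12 MSC libraries IRF9 was closest to IFI44 (r = 0.998), LY6E to IFI44L (r = 0.998), ZBP1 to RTP4 (r = 0.998) and to CMPK2 (r = 0.997), DHX58 to XAF1 (r = 0.996) and to DDX60L (r = 0.995), and OAS3 to SP110 (r = 0.993). These coefficients are carried by the gap between activated and other libraries. EPSTI1 stood apart, with MHCX1 at 0.980 and CD82 at 0.966, no other of the 8 genes among its closest 20, and r of 0.788 to 0.868 with them.

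Over the 33 joint cell libraries, with the mean of each cell type subtracted, ISG15, a ubiquitin-like interferon target, was closest to IFI44 (r = 0.931), and HERC6, a ubiquitin ligase, to DDX60L (r = 0.944). IRF7, a regulator of interferon genes, was closest to EPSTI1 (r = 0.898), IRF9 to XAF1 (r = 0.844), and OASL to CMPK2 (r = 0.923) with OAS1 after it (r = 0.894). TRIM22 was second for RTP4 (r = 0.858) and SAMD9L second for SP110 (r = 0.798), after genes listed by Ensembl identifier alone. IFI44 and IFI44L were closest to each other among the 8 (r = 0.931), and IFI44 and RTP4 least alike (r = 0.454).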

How the data were processed

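RNA-seq counts of 12 MSC and 33 joint cell libraries were used. Per the labels and the methods, the authors used cutadapt 1.12 for trimming, STAR for alignment to EquCab3.0 and HTSeq 0.11.0 for counting against Ensembl genes, of which the protein coding ones were deposited. The deposited values are these raw counts, without normalization, and the largest counts were written with 3 digits, which touches none of the genes described. Whether the counting used strand is not given in the sources used here.

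CPM was computed after TMM scaling within each table. edgeR 4.0.16 in R 4.3.3 (quasi-likelihood test, TMM) was run within a cell type on its 9 libraries from conditions with replicates, CpG over 12 MSC libraries, cell types over the 9 libraries with resting MSC-CM, and the interaction over 27. Genes with at least 10 counts in a fit were tested, with Benjamini-Hochberg adjustment over the whole table and a threshold of 0.05. The count floor was 3, and intervals and floors cover counting error only. Differences between single libraries counted from 2-fold with at least 10 counts in 1 of both. DESeq2 1.42.0, other scalings and filters, the MSC donor as a block and leaving out each library were alternatives. The model was tested on simulated counts without donor effects, for the synoviocyte fit and the fit between cell types only.

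The pairing comes from the labels, which name the same MSC donor across conditions. Deviations from the group means of same-donor libraries correlated with a median of 0.75 (MSC), 0.42 (chondrocytes), 0.18 (macrophages) and 0.01 (synoviocytes). No libraries were duplicates (lowest chi-square per degree of freedom 6.18). The 3 libraries of a joint cell condition share 1 horse, so p-values there measure the spread between media and cultures.

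The members and gene lists were chosen with earlier results of these data known. The rule named all members, gave the list genes as counts with values for some of the 5 most abundant, and took the genes most like each member by Pearson's r of log2(CPM + 1). Values for CD68, IFNG, CXCL10, MX1, DDX58, SP100, CMPK1, XIAP and RSAD2 were chosen after their values were seen.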

Additional observations from a re-analysis of the deposited data

Results flagged for a closer look

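Some genes moved in opposite directions in 2 cell types with the same medium, in all 3 donors each, a difference that was not tested by this count of directions and that did not pass the interaction test. With TLR-MSC-CM, RTP4 had a mean log2 ratio of CPM + 0.1 over resting MSC-CM of 0.79 in synoviocytes and -0.57 in chondrocytes, from 4 to 22 counts per library. In chondrocytes it had 7, 7 and 17 counts with resting MSC-CM of PC, ORC and AG1. With TLR-MSC-CM it had 6, 7 and 6 counts, so for PC and ORC the direction came from scaling by library size. With STING-MSC-CM, CMPK2 had a mean log2 ratio of -0.24 in synoviocytes and 0.41 in chondrocytes. Most of the last value lay in the AG1 library of chondrocytes, at 16.2 CPM against 8.54 CPM with resting MSC-CM of that donor.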

How the results depend on the processing

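Counts of genes called stayed at their value under the size factors of DESeq2, no filter on low counts and edgeR's filterByExpr in all comparisons. The genes were selected on the agonist contrasts in MSC, so the counts there are a description and support nothing. With the TLR3 agonist edgeR called 0 of 8 and DESeq2 5 of 8 (0.323% of all genes), and with the STING agonist 0 of 8 and 8 of 8 (0.625%). The MSC donor as a replicate block called 4 rather than 2 genes between chondrocytes and synoviocytes and changed no other count of calls. Leaving out 1 library gave 0 to 7 called genes for the TLR3 agonist, the 7 (0.345% of all genes) without the library of donor 92. With a minimum of 20 counts, 0 rather than 1 chondrocyte gene was at least 2-fold lower with the cytokines, since IFI44L was then left out. Median log2 fold changes under leave-one-out ran from -0.11 to 0.011 for TLR-MSC-CM in chondrocytes, from -0.82 to -0.50 for chondrocytes against synoviocytes, from -0.14 to 0.21 for STING- against TLR-MSC-CM in macrophages and from 0.38 to 0.51 for STING-MSC-CM in synoviocytes. The cause of these moves was not tested. Low counts limit RTP4, XAF1 and IFI44L in synoviocytes and chondrocytes.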
